A study of Homo sapiens with 6 samples.

Results

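The genes described here set whether a cell starts or blocks apoptosis: 33 genes of the BCL2 family, the caspases with their adaptors, and the inhibitors of apoptosis (IAPs) other than BIRC5. They were chosen by symbol from a list and not by a cut on their values, but earlier results of these data were known. All 33 were found among the 57819 genes of the deposited table. RNA came from IMR90 ER:Ras cells, an established human lung fibroblast strain that carries Ras joined to an estrogen receptor domain, so that 4-hydroxytamoxifen (4OHT) switches the oncoprotein on. All cells, controls included, had received 200 nM 4OHT for 3 days. Both groups are taken as senescent on this ground alone. Senescence markers and cells without 4OHT were not analysed here. The 3 control libraries came from cells given the scrambled siRNA siSCR, and the 3 knockdown libraries from cells given an siRNA against sin-lncRNA, a long noncoding RNA. The deposited column names add an ending to the name of this siRNA that the labels do not explain. Loss of the lncRNA and other effects of its siRNA cannot be told apart in this design. The labels do not say whether the libraries of a group came from separate cultures, so the p-values measure only the spread between these libraries, which may be technical.

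As background, BH3-only proteins bind anti-apoptotic BCL2 proteins or activate BAX and BAK1, which open the outer mitochondrial membrane. Cytochrome c then assembles with APAF1 and CASP9 into the apoptosome, which activates executioner caspases, while death receptors act through FADD and CASP8. IAPs hold caspases in check. Senescent fibroblasts are known to resist apoptosis and to lean on anti-apoptotic BCL2 proteins, which is the basis of drugs that kill senescent cells by blocking those proteins. Caspases are made as inactive precursors, so an RNA level says how much message was present and not whether the enzyme was active.

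Reads in genes ran from 30271192 to 50913672 in control libraries and from 22117324 to 27882280 in knockdown libraries, with no knockdown library as deep as any control. Expression is given as RPM, the reads per 1000000 reads of the authors' effective library size, and 3 reads, the most that a count of 0 allows, equal 0.0596 to 0.134 RPM depending on the library. The targeted lncRNA (ENSG00000234693.1) held 3.70, 4.73 and 4.09 RPM in controls and 0.493, 0.640 and 0.534 RPM in knockdowns, a difference of -2.86 log2 units (SE 0.18; limma adjusted p = 7.9e-07, by the Benjamini-Hochberg method over all genes tested). All 8 fibroblast markers examined were present, with a summed level of 15190 to 16370 RPM in controls and 10690 to 11120 RPM in knockdowns; 3 of the markers rose and 5 fell, COL1A1 and COL1A2 among them. Markers of epithelial and blood cells stayed at a summed 0.533 RPM or less in every library, and of the endothelial markers VWF alone passed 1 RPM (1.76 RPM in controls, 2.37 RPM in knockdowns). The part of the fibroblast marker change in the results on apoptosis genes was not tested, and in bulk RNA fewer cells of a type and less RNA per cell cannot be told apart.

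Expression of many apoptosis genes differed between the groups, mostly by small amounts. Of the 33 genes, 30 passed the filter on low values (mean normalized reads of 10 or more), and 23 of these changed at an adjusted p under 0.05: 12 rose and 11 fell. Among all 19048 genes tested, 41.0% changed, 17.5% upward and 23.5% downward. The share was 48.6% for protein-coding genes, and 52% for the 6501 protein-coding genes whose level lay between the quartiles of these members, 9.50 and 80.5 RPM. Knockdown libraries lay wholly above the controls for 14 members and wholly below for 10, where 51.1% of all genes tested did not overlap in either direction. The median log2 fold change was 0.10 over the 30 members and -0.04 over all genes tested, and the median absolute log2 fold change was 0.28 and 0.23, respectively. BMF (log2 fold change 1.56) and BCL2A1 (-1.50) were the 2 members that changed by at least 1 on the log2 scale, while 15 of the 23 changed by less than 0.5.

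**Figure D1:**
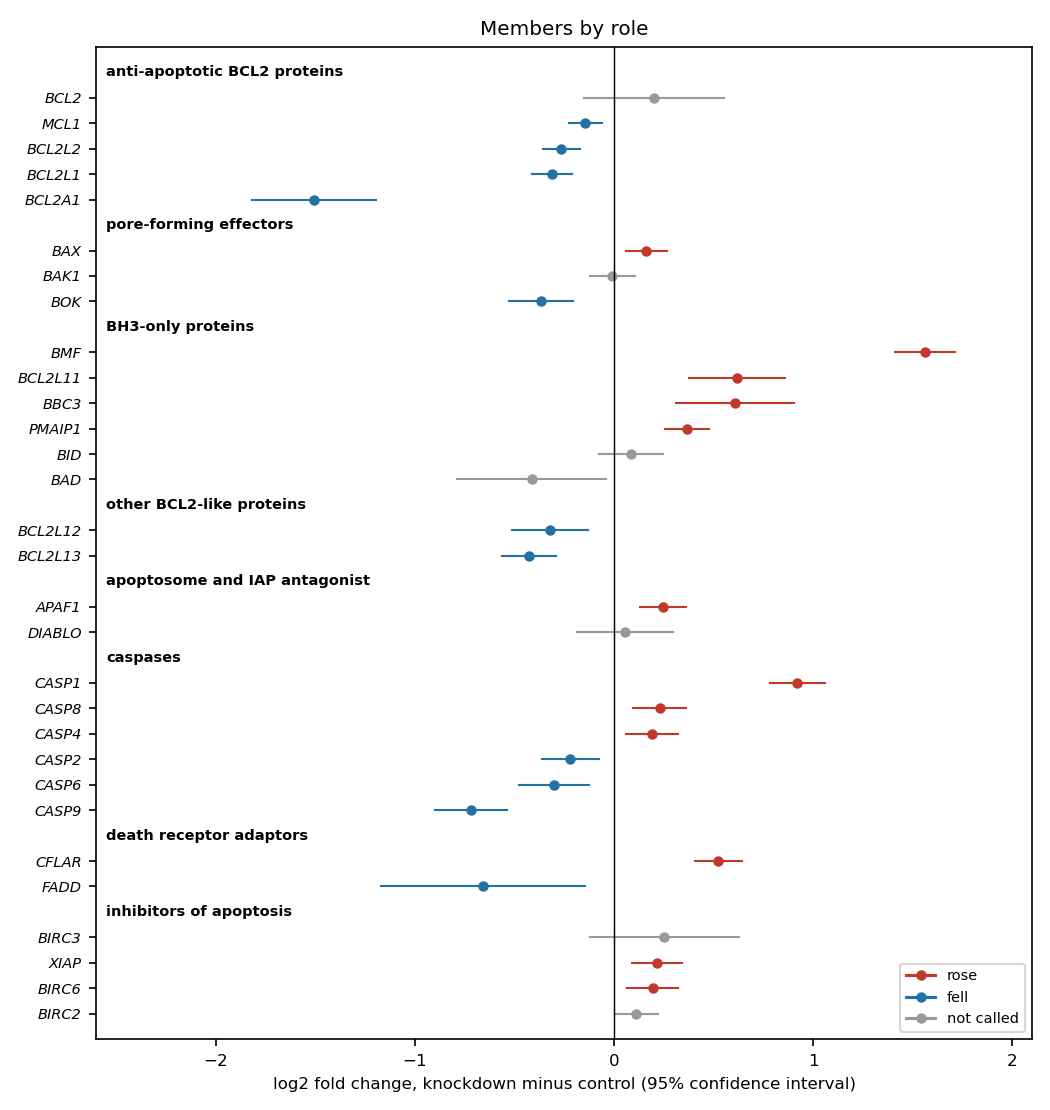
Log2 fold change of the 30 tested members with its 95% confidence interval, grouped by role; red marks members that rose, blue members that fell and grey members without a call. Of the anti-apoptotic BCL2 genes 4 are marked as fallen, and of the BH3-only genes 4 as risen, with BMF at 1.56 and BCL2A1 at -1.50 as the extremes.

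Promoter sequences from RefSeq (GRCh38.p14, 250 bases before to 50 after an annotated start) matched 28 of the 33 members, with 52 entries because several genes have more than 1 start; BCL2L2, MCL1, BIK, CASP1 and CASP10 had no entry. An entry is shown for each of the 2 members that rose most and the 2 that fell most among those matched. BMF (chr15:40108830-40109129, minus strand) and BCL2L11 (chr2:111120664-111120963, plus strand) are the BH3-only genes that rose most, and BCL2A1 (chr15:79971147-79971446, minus strand) and CASP9 (chr1:15524741-15525040, minus strand) fell most. Capitals mark matches on either strand to the GC box letters GGGCGG, the FOXO letters GTAAACA or the TATA letters TATAAA.
BMF: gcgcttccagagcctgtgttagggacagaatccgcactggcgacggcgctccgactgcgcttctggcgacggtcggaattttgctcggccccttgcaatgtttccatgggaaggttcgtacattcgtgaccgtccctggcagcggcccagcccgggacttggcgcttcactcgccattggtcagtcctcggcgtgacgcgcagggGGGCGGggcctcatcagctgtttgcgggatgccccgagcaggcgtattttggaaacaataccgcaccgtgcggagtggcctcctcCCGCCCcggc
BCL2L11: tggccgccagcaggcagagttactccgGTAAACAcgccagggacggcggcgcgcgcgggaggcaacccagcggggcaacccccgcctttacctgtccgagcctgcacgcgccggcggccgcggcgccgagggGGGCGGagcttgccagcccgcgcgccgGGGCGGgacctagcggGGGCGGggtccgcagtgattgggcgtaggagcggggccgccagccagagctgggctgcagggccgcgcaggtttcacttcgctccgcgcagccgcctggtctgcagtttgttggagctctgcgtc
BCL2A1: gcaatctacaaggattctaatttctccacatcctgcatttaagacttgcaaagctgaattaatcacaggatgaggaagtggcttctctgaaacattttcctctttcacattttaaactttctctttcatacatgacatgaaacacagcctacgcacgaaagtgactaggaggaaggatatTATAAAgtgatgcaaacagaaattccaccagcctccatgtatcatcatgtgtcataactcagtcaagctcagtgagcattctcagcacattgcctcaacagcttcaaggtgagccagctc
CASP9: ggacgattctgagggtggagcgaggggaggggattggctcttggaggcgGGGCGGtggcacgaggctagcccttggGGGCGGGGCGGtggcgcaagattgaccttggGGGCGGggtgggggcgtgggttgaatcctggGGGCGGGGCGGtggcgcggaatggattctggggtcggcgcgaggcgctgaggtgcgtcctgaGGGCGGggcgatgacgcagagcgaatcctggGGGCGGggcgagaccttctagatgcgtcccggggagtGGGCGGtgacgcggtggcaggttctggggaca
The CASP9 entry is 71.3% G and C and holds the GC box 9 times, some of them overlapping. BCL2A1 is 41% G and C there, without a GC box and with a TATA match. BCL2L11 holds the single FOXO match found among the 52 entries, and 3.42% of all 35116 promoters hold those letters. The GC box was in 69.2% of the members' entries and 45.0% of all promoters, and the TATA letters were in 5.77% and 11.5%. The same search on both strands found the AP-1 letters TGANTCA in 11.5% of member entries (7.71% of all promoters), the E-box CACGTG in 9.62% (7.26%) and the CRE letters TGACGTCA in 3.85% (1.85%). Entries of 1 gene can overlap, and no measurement of binding at these promoters was analysed here.

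RNA of the anti-apoptotic BCL2 proteins, which hold BAX and BAK1 or their activators inactive, was lower in knockdowns for 4 of 5 genes, and 0 rose. Of all genes tested, 23.5% fell and 17.5% rose. Among these 5 genes BCL2A1 fell most. This short-lived family member, a known target of NF-kB, is encoded on chromosome 15 from 80253231 to 80263788 in the table's hg19 coordinates. Its level was 5.87, 7.96 and 6.84 RPM in control replicates 1, 2 and 3 and 2.73, 2.35 and 2.14 RPM in the knockdown replicates, on 55 to 344 reads. Knockdown libraries held 34.9% of the control mean, and no knockdown library reached any control (log2 fold change -1.50, SE 0.14; limma adjusted p = 1.5e-05). BCL2L1, which encodes BCL-xL, stood at 110.5, 119.6 and 114.6 RPM in controls and at 92.8, 93.6 and 91.5 RPM in knockdowns. The log2 difference was -0.31 (SE 0.05; limma adjusted p = 0.00030), with the groups apart. BCL2L2, which encodes BCL-w, went from 93.5, 96.4 and 94.1 RPM to 78.8, 78.2 and 79.2 RPM (log2 fold change -0.26, SE 0.04; limma adjusted p = 0.00052). Replicates of BCL2L2 differed by little, with a coefficient of variation of 1.61% in controls and 0.602% in knockdowns. The knockdown value is less than the counting error of 1759 to 2223 reads would give.

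MCL1, a rapidly turned over guard against BAK1, had the highest level per exon length of all members. Its level was 1189.5, 1198.9 and 1224.3 RPM in controls and 1098.5, 1099.5 and 1073.4 RPM in knockdowns. The fall was small (log2 fold change -0.14, SE 0.04; limma adjusted p = 0.011) although every knockdown library lay below every control. Its call was lost without control replicate 3 (limma adjusted p = 0.067) or knockdown replicate 3 (0.051), at log2 fold changes of -0.13 in each case. BCL2 itself was scarce in these cells, at 1.23, 1.27 and 1.33 RPM in controls and 1.48, 1.41 and 1.496 RPM in knockdowns, on 33 to 67 reads. Although its knockdown libraries were the higher ones, BCL2 did not pass the test (log2 fold change 0.20, 95% confidence interval -0.15 to 0.55; limma adjusted p = 0.347). Exons of BCL2L1 share 43.0% of their bases with an antisense gene in GENCODE 29, and 24.3% of BCL2L2 exon bases are shared with BCL2L2-PABPN1 or PPP1R3E, so part of the reads of these genes is uncertain.

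The pore-forming effectors moved apart. BAX, which opens the outer mitochondrial membrane, rose from 148.6, 135.6 and 136.9 RPM to 159.5, 156.5 and 154.9 RPM. This was a log2 difference of 0.16 (SE 0.05; limma adjusted p = 0.016), with every knockdown library above every control. Without control replicate 2 or 3 the BAX value was 0.14 or 0.15 and was not called (limma adjusted p = 0.053 and 0.081). BAK1, its close relative, held 36.2, 36.1 and 35.1 RPM in controls and 34.6, 35.8 and 36.4 RPM in knockdowns. The difference for BAK1 was -0.01 on the log2 scale (95% confidence interval -0.12 to 0.10; limma adjusted p = 0.915), and its sign changed under other scalings. BOK, a BAX-like protein not governed by the anti-apoptotic members in the usual way, went from 51.5, 46.9 and 50.2 RPM to 34.3, 41.7 and 39.5 RPM, with every knockdown library below every control. Its log2 difference was -0.37 (SE 0.07; limma adjusted p = 0.0023).

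The genes of the BH3-only proteins, which trigger the pathway, included the largest rise of all members. Of 8 genes, 6 were tested: 4 rose (BMF, BCL2L11, BBC3 and PMAIP1), 0 fell, and BID and BAD did not pass the test. Among all genes tested, 17.5% rose and 23.5% fell. BMF, a BH3-only protein held at the cytoskeleton and linked to death after loss of attachment, lies on chromosome 15 from 40380091 to 40401093 (hg19). It stood at 15.6, 18.0 and 16.6 RPM in controls and 50.0, 46.7 and 51.7 RPM in knockdowns. Knockdown levels were 2.95-fold higher, far outside the spread of either group (log2 fold change 1.56, SE 0.07; limma adjusted p = 9.1e-08). The rise of BMF was larger than that of 99.6% of all genes tested. BCL2L11, which encodes BIM, a strong binder of every anti-apoptotic member, rose from 4.61, 4.26 and 4.25 RPM to 7.62, 6.02 and 6.59 RPM, on 128 to 214 reads. Its log2 difference was 0.62 (SE 0.11; limma adjusted p = 0.0012). Both genes share part of their exons with an antisense gene in GENCODE 29, 8.46% of bases for BMF and 10.9% for BCL2L11.

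BBC3 (PUMA) and PMAIP1 (NOXA) are BH3-only genes known as direct targets of p53. BBC3 held 12.8, 8.62 and 11.9 RPM in controls and 14.9, 18.1 and 17.4 RPM in knockdowns. Control replicate 2 was the low one of its group, and the groups did not overlap. The log2 difference of BBC3 was 0.61 (SE 0.13; limma adjusted p = 0.0042), and 0.44 without control replicate 2, with the call kept. PMAIP1, whose protein binds MCL1, had the highest level per exon length of the BH3-only genes and held 107.4, 110.5 and 116.8 RPM in controls and 136.4, 149.2 and 145.8 RPM in knockdowns. The gene rose by 0.37 on the log2 scale (SE 0.05; limma adjusted p = 0.00021), and every knockdown library exceeded every control.

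BID, which encodes the protein that CASP8 cleaves to link death receptors to mitochondria, held 65.8, 57.2 and 64.5 RPM in controls and 61.1, 72.7 and 65.2 RPM in knockdowns. These ranges overlapped (log2 fold change 0.08, 95% confidence interval -0.08 to 0.24; limma adjusted p = 0.383). BAD, whose activity is set by phosphorylation downstream of growth factors, varied widely within groups: 23.9, 15.4 and 22.8 RPM in controls and 12.2, 17.9 and 16.3 RPM in knockdowns. BAD did not pass the test (log2 fold change -0.41, SE 0.17; limma adjusted p = 0.075). It did so without control replicate 2 (-0.61; limma adjusted p = 0.0019) or knockdown replicate 2 (-0.53; 0.046), and was at -0.25 without knockdown replicate 1. Exons of BAD share 23.7% of their bases with GPR137 on the other strand. BIK and HRK were near the detection limit, with 0 to 4 and 0 to 5 reads per library, and were not tested.

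**Figure D2:**
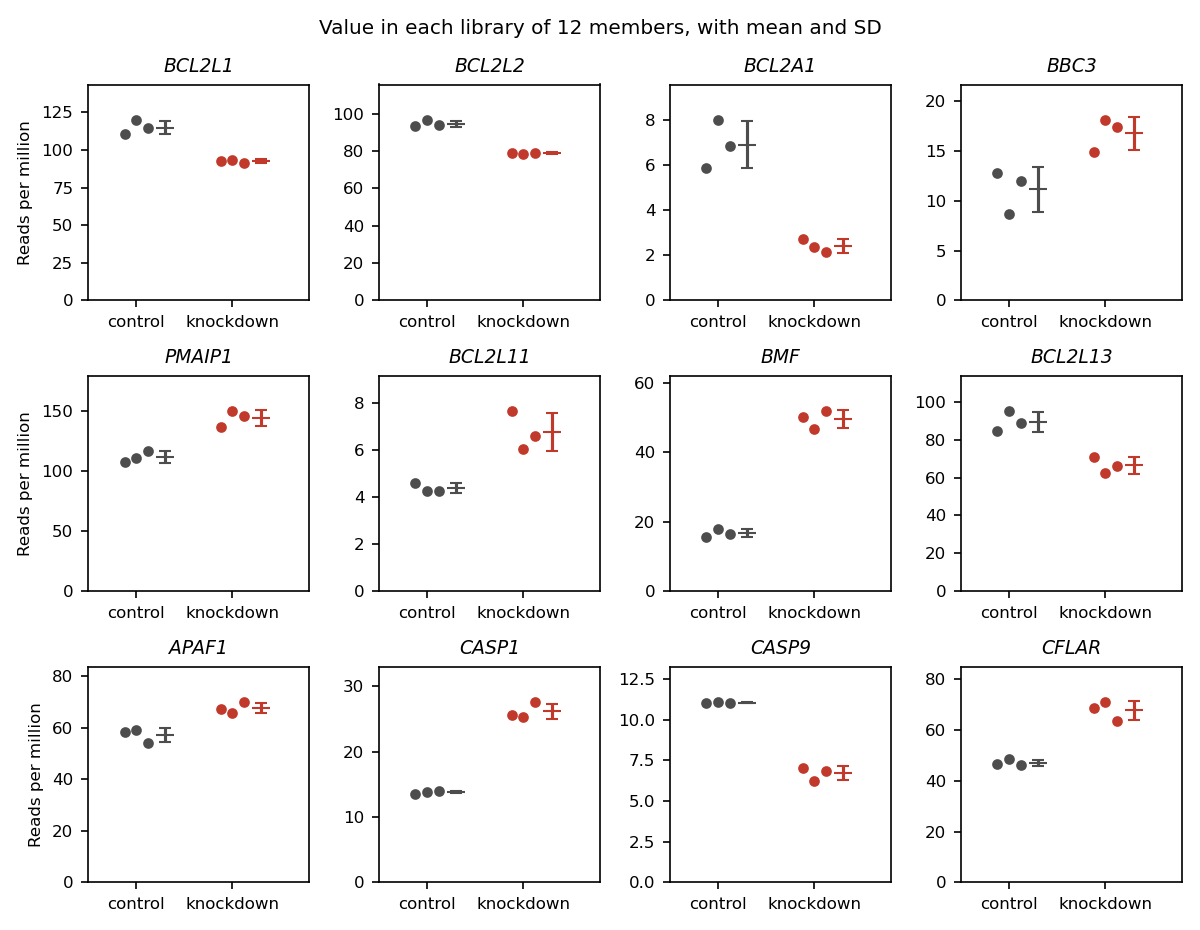
Expression in RPM (vertical axes, starting at 0) in each of the 3 control and 3 knockdown libraries for the 12 members whose call held in every other fit; points are libraries, and the bar beside them is the mean with its SD. The groups do not overlap for any of the 12, with BMF at 46.7 to 51.7 RPM in knockdowns against 15.6 to 18.0 RPM in controls and CASP9 at 6.23 to 7.04 RPM against 11.0 to 11.1 RPM.

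The 2 other BCL2-like members both fell, where 23.5% of all genes tested fell. BCL2L13, a mitochondrial outer membrane protein known as a mitophagy receptor, went from 84.5, 94.8 and 88.6 RPM to 71.0, 62.4 and 65.9 RPM. The groups were apart, with a log2 difference of -0.43 (SE 0.06; limma adjusted p = 0.00026). BCL2L12 went from 10.4, 9.96 and 10.5 RPM to 7.44, 8.67 and 8.62 RPM (log2 fold change -0.32, SE 0.09; limma adjusted p = 0.012). That call was lost without control replicate 3 (-0.31; limma adjusted p = 0.055), and BCL2L12 shares 33.1% of its exon bases with IRF3 on the other strand.

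In the apoptosome, the scaffold and its caspase moved in opposite directions. APAF1, the cytochrome c sensor that recruits CASP9, rose from 58.3, 59.3 and 54.0 RPM to 67.5, 65.9 and 69.9 RPM (log2 fold change 0.24, SE 0.05; limma adjusted p = 0.0034). CASP9, the initiator caspase of the mitochondrial pathway, lies on chromosome 1 from 15817327 to 15853029 (hg19). Its level was 11.0, 11.1 and 11.0 RPM in controls and 7.04, 6.23 and 6.88 RPM in knockdowns. The controls, on 332 to 556 reads, differed by 0.201% (coefficient of variation), less than counting error alone would give. CASP9 fell by 0.72 on the log2 scale (SE 0.08; limma adjusted p = 5.9e-05), a larger fall than that of 96.1% of all genes tested. The ratio of APAF1 to CASP9, each per exon length, was 3.53, 3.57 and 3.26 in controls and 6.39, 7.04 and 6.77 in knockdowns; this ratio was chosen after the values were seen and was not tested. DIABLO, a mitochondrial protein that relieves IAPs of caspases, held 4.89 to 5.80 RPM in controls and 5.29 to 6.23 RPM in knockdowns. It did not pass the test (log2 fold change 0.05, 95% confidence interval -0.19 to 0.30; limma adjusted p = 0.730), and 30.4% of its exon bases are shared with other genes.

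All 6 caspases tested changed, 3 upward and 3 downward, where 41.0% of all genes tested changed. Of the 6, CASP1 and CASP9 alone kept the call in every other fit. The inflammatory caspases rose. CASP1, which matures interleukin-1 beta in the inflammasome, held 13.6, 13.9 and 14.0 RPM in controls and 25.6, 25.4 and 27.5 RPM in knockdowns. That is a 1.89-fold difference with no overlap (log2 fold change 0.92, SE 0.06; limma adjusted p = 1.6e-06). CASP1 lies on chromosome 11 from 104896170 to 104972158 (hg19), and in the table its span overlaps CARD16, a near-identical copy of its N-terminal part, on the same strand. CARD16 rose too, from 12.8 ± 0.9 to 20.7 ± 1.3 RPM (SD, n = 3; log2 fold change 0.69), and how reads shared by the 2 genes were assigned is not stated. CASP4, the sensor of intracellular lipopolysaccharide, which lies within 159 kb of CASP1 in the same cluster, went from 65.2, 75.6 and 74.2 RPM to 80.9, 82.9 and 81.1 RPM. This rise was small (log2 fold change 0.19, SE 0.06; limma adjusted p = 0.023). The call for CASP4 was lost without control replicate 1 (0.12; limma adjusted p = 0.056), knockdown replicate 2 (0.18; 0.067) or knockdown replicate 3 (0.20; 0.063).

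CASP8, the initiator at death receptors, rose from 17.7, 19.0 and 18.5 RPM to 21.8, 21.4 and 21.4 RPM (log2 fold change 0.23, SE 0.06; limma adjusted p = 0.010), with the groups apart. CASP6, an executioner caspase that cleaves lamins, went from 11.5, 10.7 and 11.7 RPM to 9.73, 8.96 and 8.76 RPM. Its log2 difference was -0.30 (SE 0.08; limma adjusted p = 0.012), and -0.27 without control replicate 3, where the call was lost (limma adjusted p = 0.061). CASP2, the caspase of the PIDDosome, fell from 30.3, 32.6 and 30.5 RPM to 28.9, 25.7 and 25.6 RPM. The fall of CASP2 was 0.22 on the log2 scale (SE 0.07; limma adjusted p = 0.019). CASP2 lost its call without control replicate 2 (limma adjusted p = 0.062), knockdown replicate 2 (0.066) or knockdown replicate 3 (0.080), at log2 fold changes near -0.19. CASP10, the other death receptor caspase, had 3 to 11 reads per library and was not tested.

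The adaptors of death receptors differed in direction. CFLAR encodes cFLIP, a caspase-like protein without enzyme activity that restrains CASP8; CFLAR, CASP10 and CASP8 lie side by side within 172 kb of chromosome 2. CFLAR rose from 46.5, 48.4 and 46.4 RPM to 68.8, 70.8 and 63.7 RPM. This was 1.44-fold with no overlap (log2 fold change 0.52, SE 0.05; limma adjusted p = 2.6e-05). The ratio of CFLAR to CASP8 per exon length went from 0.825 ± 0.020 in controls to 1.01 ± 0.05 in knockdowns (SD, n = 3), a description chosen after the values were seen. FADD, the adaptor that joins the receptors to CASP8, held 8.81, 4.43 and 7.31 RPM in controls and 3.18, 4.65 and 4.84 RPM in knockdowns. Control replicate 2 fell inside the knockdown range, so the groups overlapped although FADD was called (log2 fold change -0.66, SE 0.23; limma adjusted p = 0.042). Without control replicate 2 the value was -0.94 (limma adjusted p = 0.00072). Without control replicates 1 or 3 it was -0.45 (0.149) or -0.58 (0.132), and without knockdown replicates 1, 2 or 3 it was -0.47 (0.152), -0.74 (0.054) or -0.77 (0.056). FADD shares 54.9% of its exon bases with an antisense gene, the most of any member.

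Of the IAPs, 2 of 4 rose and 0 fell, all by little, where 17.5% of all genes tested rose and 23.5% fell. XIAP, the IAP that inhibits caspases directly, went from 74.7, 74.3 and 76.7 RPM to 95.2, 84.4 and 83.0 RPM (log2 fold change 0.22, SE 0.06; limma adjusted p = 0.011). Every knockdown library exceeded every control. BIRC6, a giant IAP with ubiquitin ligase activity, held 174.1, 193.8 and 178.5 RPM in controls and 224.5, 195.1 and 205.9 RPM in knockdowns, where control replicate 2 and knockdown replicate 2 nearly met. The log2 difference of BIRC6 was 0.19 (SE 0.06; limma adjusted p = 0.022). It was not called without control replicate 1 (0.16; limma adjusted p = 0.065), control replicate 3 (0.18; 0.082), knockdown replicate 1 (0.14; 0.076) or knockdown replicate 3 (0.20; 0.058). BIRC2 (cIAP1) and BIRC3 (cIAP2), neighbours within 61.2 kb of chromosome 11 that ubiquitinate RIPK1 at TNF receptors, did not pass the test. BIRC2 held 94.4 to 102 RPM in controls and 103 to 111 RPM in knockdowns (log2 fold change 0.11, 95% confidence interval 0.01 to 0.22; limma adjusted p = 0.083). BIRC3 was low, at 1.70 to 2.56 RPM in controls and 2.22 to 2.60 RPM in knockdowns (log2 fold change 0.25; limma adjusted p = 0.263), and was at 0.12 without control replicate 1 and 0.42 without control replicate 2.

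Compared per exon length (RPM per kilobase of the union of GENCODE 29 exons, which can exceed the length of the message made), a few genes held most of each role's total. MCL1 made up 81.2% of the summed level of anti-apoptotic members in controls and 83.6% in knockdowns, at 275.5 ± 4.1 and 249.5 ± 3.4 RPM per kilobase (SD, n = 3). BCL2L1 followed at 34.7 ± 1.4 RPM per kilobase in controls, then BCL2L2 at 22.6 ± 0.4, BCL2A1 at 6.33 ± 0.96 and BCL2 at 0.109 ± 0.004. Each step in this order was larger than the spread of its neighbours. PMAIP1 made up 59.9% of the BH3-only total in controls and 62.0% in knockdowns, and the share of BMF went from 3.69% to 8.75%. The summed anti-apoptotic level was 339.2 ± 5.3 RPM per kilobase in controls and 298.6 ± 3.8 in knockdowns, while the BH3-only sum was 83.4 ± 4.8 and 103.8 ± 6.1 (SD, n = 3). The sums of the 3 effectors were nearly level, at 88.7 ± 3.6 and 91.0 ± 1.1 RPM per kilobase. The IAP sum was higher in knockdowns too, at 40.6 ± 1.4 in controls and 45.3 ± 1.6 in knockdowns. For the caspases the sums were 28.0 ± 0.9 and 30.6 ± 0.4. These sums describe message and were not tested.

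**Figure D3:**
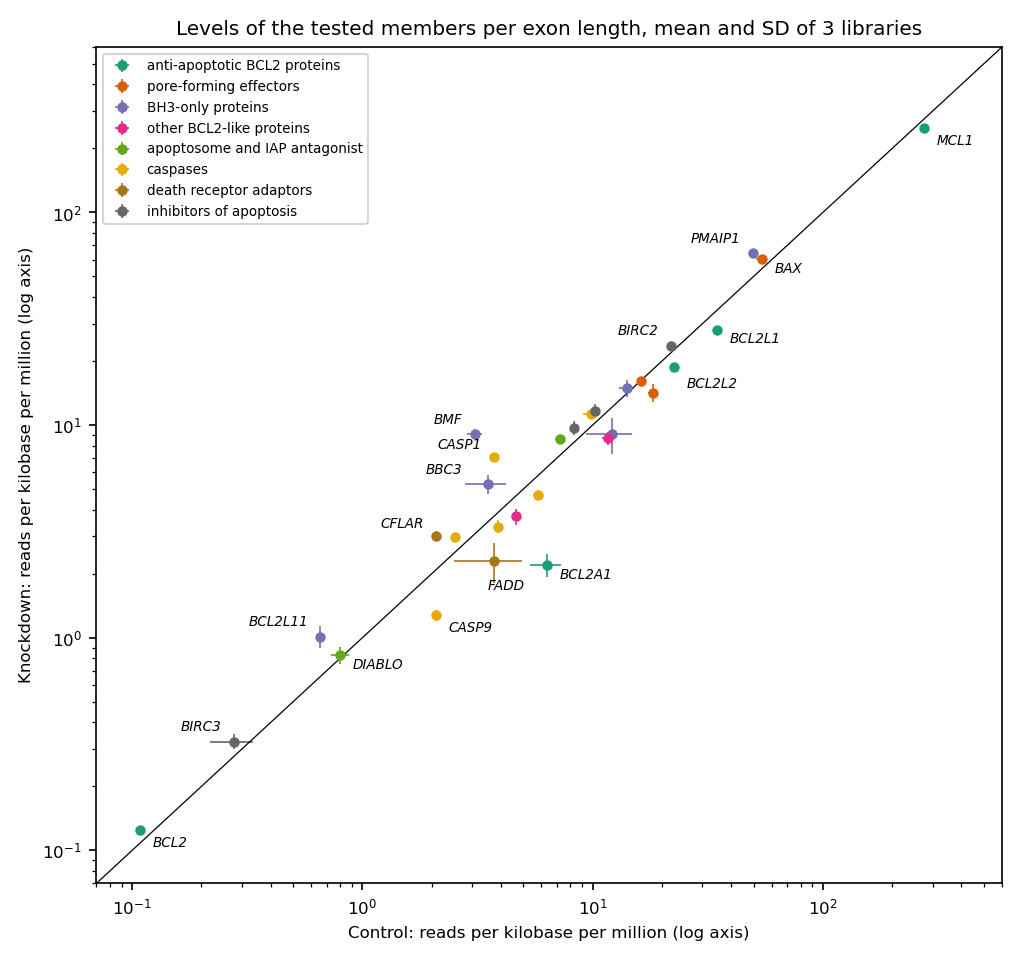
Mean level of the 30 tested members in RPM per kilobase of exon in control (horizontal, log axis) and knockdown (vertical, log axis) libraries, with SD bars over 3 libraries and the line of equal levels; colours mark the role. MCL1 stands highest at 275.5 in controls, BMF lies above the line (3.08 and 9.08) and BCL2A1 below it (6.33 and 2.21).

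GC content of the transcripts moved with some of these results. Per 10 percentage points of GC, log2 values deviated from the gene's mean by 0.11, -0.02 and 0.04 in control replicates 1, 2 and 3 and by -0.11, 0.004 and -0.03 in the knockdown replicates. With this trend and that of length removed, a setting added after the data were seen, 18 of the 30 members changed, 9 in each direction, where 8178 of the 18546 genes with a GC content and length changed (3716 upward, 4462 downward). Calls over all genes thus went from 7805 to 8178 while those of members went from 23 to 18. The rises of BBC3 (69.7% GC) and BAX (58.9% GC) were larger then, at 0.89 (limma adjusted p = 8.2e-07) and 0.33 (3.8e-05). BOK (66.0% GC) was at -0.16 (limma adjusted p = 0.086), BCL2L12 at -0.17 (0.087), CASP4 at 0.10 (0.111), XIAP at 0.09 (0.135) and BIRC6 at 0.05 (0.322), and their calls were lost. APAF1 was at 0.15 with its call kept, BAD (66.3% GC) at -0.14, BAK1 at 0.12, BIRC2 at 0.03, BIRC3 at 0.14 and BCL2 at 0.12, the last 5 without a call. BMF, BCL2A1, CASP1 and CASP9 were at 1.59, -1.48, 0.91 and -0.71.

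**Figure D4:**
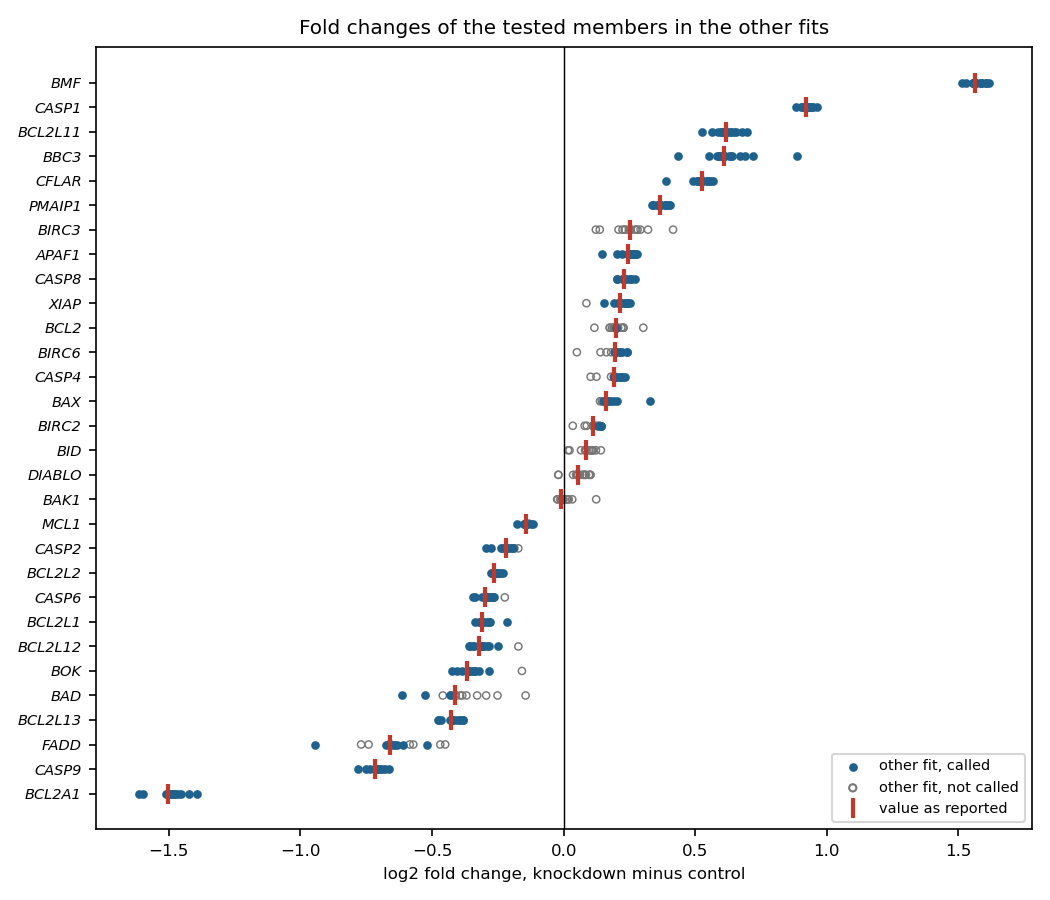
Log2 fold change of the 30 tested members in the other fits (filled points, called; open points, not called) beside the value as reported (red tick). BMF, CASP1, CASP9 and BCL2A1 stay within 1.51 to 1.62, 0.88 to 0.96, -0.78 to -0.66 and -1.61 to -1.40, while FADD runs from -0.94 to -0.45.

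Other genes of the death pathways were taken from a list of 64, of which 55 were tested: 14 rose and 16 fell. That is 54.5% of those tested, beside 41.0% of all genes and 48.6% of protein-coding genes. CASP12 (log2 fold change 1.01, on 25 to 80 reads per library) and CASP5 (0.53; limma adjusted p = 0.036) rose; both lie beside CASP4 and CASP1 on chromosome 11. CASP12 went from 1.29, 0.832 and 1.39 RPM to 2.15, 2.01 and 2.85 RPM, with the groups apart (limma adjusted p = 0.0040).

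The largest rise on that list was in XAF1, an interferon-inducible antagonist of XIAP, from 1.85, 1.299 and 1.33 RPM to 3.59, 4.18 and 5.95 RPM (log2 fold change 1.59; limma adjusted p = 0.00013). XAF1 had 39 to 167 reads per library and shares 38.3% of its exon bases with a gene on the other strand. TNFSF10, the ligand TRAIL, was scarce, at 0.433 to 0.497 RPM and 0.677 to 0.852 RPM, on 13 to 25 reads per library. Its call (log2 fold change 0.71; limma adjusted p = 0.033) was lost in 5 of the 6 fits that left out a library, at 0.69, 0.68 and 0.76 without control replicates 1, 2 and 3 and 0.62 and 0.73 without knockdown replicates 1 and 2. The largest falls were in FASLG, the ligand of FAS (-1.16, on 11 to 52 reads per library), PYCARD, the inflammasome adaptor that recruits CASP1 (-0.71), AVEN, a caspase activation inhibitor (-0.51), and RIPK2, a kinase of the NOD receptors (-0.49). FAS itself, the receptor, went from 32.5, 32.8 and 33.2 RPM to 49.1, 46.1 and 46.6 RPM, a 1.44-fold rise with the groups apart (log2 fold change 0.52, SE 0.05; limma adjusted p = 1.8e-05). PYCARD went from 9.34, 6.53 and 7.73 RPM to 4.75, 4.74 and 4.77 RPM (limma adjusted p = 0.0011), opposite in direction to CASP1. Exons of PYCARD share 59.7% of their bases with an antisense gene, and those of FAS share 8.94% with ACTA2 on the other strand. Part of the reads of both genes is thus uncertain. Of 10 death receptor and ligand genes tested 3 rose and 3 fell, where 17.5% of all genes tested rose and 23.5% fell. All 3 VDAC genes, channels of the outer mitochondrial membrane, fell by 0.19 to 0.27 on the log2 scale, where 23.5% of all genes tested fell. BIRC5, the IAP left out of the members, went from 5.38 to 3.96 RPM and did not pass the test (log2 fold change -0.44; limma adjusted p = 0.057).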

How the data were processed

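PolyA RNA was read on an Illumina HiSeq as single reads of 50 bases, per the labels' protocols. Bowtie2, featureCounts and the hg19 build are named in the submitters' processing notes; the strand setting and annotation release are not given in the sources used here, so genes that overlap on either strand are uncertain. The authors deposited log2 CPM values with an offset of 0.5 reads; this form was worked out from the values, and undoing it gave whole reads (within 0.001) for 100% of values. Chi-square per degree of freedom between replicates was 2.69 to 10.1, more than counting error alone would give. Each library counted once, and these values cannot show whether the libraries came from separate cultures.

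The deposited log2 values were fitted with limma 3.58.1 (R 4.3.3; lmFit and eBayes with a trend) with group as the sole term, two-sided, over the 19048 genes with a mean of at least 10 normalized reads. Benjamini-Hochberg adjustment covered all of them, with calls at an adjusted p under 0.05. RPM leave out the offset. An exact permutation test of 3 against 3 cannot go below p = 0.1. Libraries with equal replicate numbers were not paired, since their residuals from the group means had correlations of -0.15, -0.18 and 0.07. Named were all members, the target and the 4 largest rises and falls called on the list of other death genes, apart from items not reported here; FAS, CASP5, BIRC5, CARD16 and the VDAC genes were named after their values were seen. Members and lists were chosen with earlier results of these data known. Floors cover counting error only. Exon lengths and overlaps (GENCODE 29, GRCh38) were matched by gene ID; coordinates of genes are those of the table.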

Additional observations from a re-analysis of the deposited data

How the results depend on the processing

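In the 20 other fits the number of members changed ran from 13 to 24. An adjusted p under 0.01 left 13 members and 5195 of all genes, by construction. With a library left out, 17 to 22 members and 5803 to 7330 genes changed, the fewest without control replicate 3. With the replicate number as a block, 20 members, 27 other death genes and 6454 genes changed and the lncRNA was at -2.86. BIRC6, CASP2 and FADD lost their calls there. Without the trend in eBayes 17 members and 6608 genes changed. In that fit BAX, BIRC6, CASP2, CASP4, FADD, MCL1 and XIAP lost their calls, and BCL2 gained a call. Of the 23 calls, 12 held in every fit, 11 were lost in at least 1, and 0 changed direction. Of the 7 members without a call, 3 gained one somewhere (BAD, BCL2 and BIRC2; BIRC2 under library totals, median-of-ratios, quantile normalization and thinning to the smallest total). BAK1 changed sign under library totals (0.011), median-of-ratios (0.019), quantile normalization (0.033), thinning (0.018) and the GC and length correction (0.12), and leaving out each library gave -0.025 to 0.013. For DIABLO the same gave -0.021 to 0.10. None of these BAK1 and DIABLO values was called, and the cause was not tested. Depth limits BIK, HRK and CASP10, with 11 reads or fewer per library.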
